A study of Homo sapiens with 36 samples.

Results

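An interval of a dual SMAD inhibition course, called DSi, was examined by setting the cells collected on day 6 against those of day 3. The samples were chosen by their source labels, and 6 of the 36 arrays of the series belonged to these groups, 3 to each day. All cells came from WA09, an established human embryonic stem cell line, which was maintained on mouse embryonic fibroblasts and then plated on matrigel for differentiation. By their labels both groups were grown in 100 nM LDN-193189, a blocker of the kinases that receive bone morphogenetic protein (BMP) signals, and in 10 µM SB431542, a blocker of the kinases that receive activin, Nodal and TGF-beta. They differed, as far as the labels state, in the day of collection alone. The labels name both inhibitors for all 36 arrays, day 0 included, and do not give when each was added or removed. The other 30 arrays held days 0 and 1, DSi at days 8 and 11, a neural crest condition (NC) and a melanocyte condition (BE). By the labels NC received 3 µM CHIR 99021 beside the same inhibitors. BE received all of these and also 25 ng/ml BMP4 and 100 nM EDN3. CHIR 99021 inhibits the kinase GSK3 and so activates WNT signalling. The labels do not say whether replicates were separate cultures, so the p-values below reflect nothing beyond the scatter of these samples, possibly of technical origin, and all groups come from 1 cell line.

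Blocking both branches of SMAD signalling is a standard way to turn pluripotent stem cells into neural tissue. Stem cells leave pluripotency, become neuroectoderm, and in the absence of posterior signals take on the identity of the anterior neural plate, from which the forebrain and the eyes form. In the embryo that identity is laid down by transcription factors of the forebrain and eye field, under the influence of FGF, Notch, BMP, WNT and retinoid signals.

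The arrays carried human probes whose signals were corrected for background, quantile normalized and log2 transformed. A gene is given by its log2 signal on each array, in the order of replicates 1, 2 and 3, and a difference is the fitted day 6 minus day 3 value of limma with its standard error. The mean raw signal of the 6 arrays lay between 268 and 406.3, and 36.9% to 40% of all probes were above background. Over the 29106 probes kept by the detection filter, day 3 arrays correlated with each other at 0.975 to 0.979. Day 6 arrays did so at 0.974 to 0.984, and arrays of different days at 0.937 to 0.967. Replicate 1 of day 3 was the nearest of its group to the day 6 arrays, at 0.955 to 0.967. Its title also lacks a suffix that the titles of the other DSi arrays carry and whose meaning is not given, and its source label gave its group. Without it 3420 genes passed the test, against 3315 with it. The number of arrays, 3 a group, limits the precision.

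Of 22848 genes tested, 3315 differed between the days at an adjusted p under 0.05, which is 14.5%. Of these 1557 (6.81% of all genes tested) were higher and 1758 (7.69%) were lower at day 6. The shares of the gene lists given below are to be read beside these, and some lie close to them. The change exceeded 1 on the log2 scale for 519 of the higher and 630 of the lower genes. Among the genes tested, past the threshold or not, the day 6 arrays all lay above the day 3 arrays for 3029 (13.3%). They all lay below for 3259 (14.3%), and 3058 of the genes past the threshold were among these separated genes. With the arrays scaled to 1 median and not quantile normalized, 1560 genes passed, 838 higher and 722 lower. With only the arrays compared in the fit, 2272 passed, 1062 higher and 1210 lower. The size of a change also depended on the processing: of 128 named genes that changed by at least 1, 76 were over 1.5 times smaller in the authors' values, at a median ratio of 0.583, against 19 with an offset of 50 and 17 with the mean of a gene's probes. In the authors' values PAX6 rose by 3.35 (5.18 here), DACH1 by 2.11 (4.84), NRG1 by 1.07 (4.11) and LMO3 by 1.02 (3.64). NPTX1 differed by -3.68 there and by -6.46 here, and all of them passed in both. The culture is a bulk sample, in which more cells of a type and more RNA per cell cannot be told apart.

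**Figure D1:**
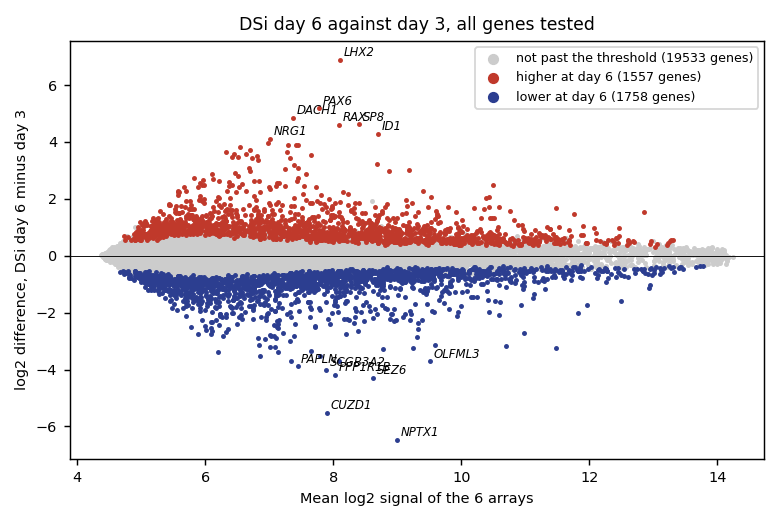
Log2 difference between DSi day 6 and day 3 (vertical axis) against the mean log2 signal of the 6 arrays (horizontal axis), 1 point a gene. Red points are the 1557 genes higher at day 6, blue points the 1758 lower genes and grey points the genes not past the threshold; LHX2 is highest and NPTX1 lowest.

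The largest rises included factors of the forebrain and eye field. LHX2, a LIM homeobox factor needed in the mouse for eye and cortex formation, had the largest rise of all named genes. Its log2 signals were 5.04, 4.46 and 4.50 at day 3, where it was not above background on any array, and 11.92, 11.84 and 10.90 at day 6. The groups were far apart, and LHX2 was at least 83.1-fold higher at day 6 (adjusted p = 5.63e-25). For a gene not above background on any array of the dimmer group, the fold is a lower bound ("at least"), in which the bright group's mean is set against the dim arrays, each counted at its own signal for that gene or, if larger, at the dimmest signal any detected probe had there.

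PAX6, the paired box factor of eye field and cortical progenitors, had log2 signals of 5.82, 4.72 and 4.99 at day 3 and 10.16, 10.25 and 10.66 at day 6. It was above background on 1 of the 3 day 3 arrays, and the difference was 5.18 ± 0.23 (adjusted p = 8.81e-22). RAX, the retinal homeobox factor of the eye field, had 6.79, 4.66 and 5.91 at day 3 and 10.74, 10.62 and 9.80 at day 6. Replicate 1 was the highest day 3 array for both genes, and neither gene's groups overlapped. RAX was above background on 2 day 3 arrays and rose by 4.60 ± 0.33 (adjusted p = 2.11e-14).

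SP8, a zinc finger factor of the anterior neural ridge and of the dorsal forebrain, was already above background on all day 3 arrays at 6.35, 6.17 and 5.74. It reached 10.46, 10.71 and 10.96 at day 6, a rise of 4.62 ± 0.22 (adjusted p = 2.25e-20). EMX2, a homeobox factor that patterns the cortex, went from 5.62, 5.02 and 5.40 to 8.58, 9.25 and 9.86, with 2 day 3 arrays above background. OTX1, a paired-type homeobox factor of forebrain and midbrain, was not above background at day 3 and was at least 8.35-fold higher at day 6. For each of these genes the days were separated on every array.

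Members of the forebrain list with smaller changes passed as well. EMX1, the cortical relative of EMX2, was at least 2.18-fold higher at day 6, after day 3 signals of 4.69, 4.62 and 5.03 that were all at background. In the list of 19 forebrain genes, 16 were tested, 7 rose (43.8%) and 2 fell (12.5%). The median difference was 0.78 against -0.01 over all genes. In that list 0 genes fell with median scaling or without replicate 1 or 3 of day 3 or replicate 3 of day 6, and 1 fell without replicate 1 or 2 of day 6. Of 15 eye field genes 11 were tested, of which 3 rose (27.3%), 1 fell (9.09%) and 7 did not pass. The median was 0.12, and 0 fell with the authors' values.

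Other members of the same lists, among them OTX2 and SIX3, were already above background at day 3 and did not pass the test. OTX2, the head organizer and forebrain factor, had 11.32, 10.64 and 11.21 at day 3 and 11.11, 10.88 and 11.06 at day 6, a difference of -0.04 ± 0.18 (adjusted p = 0.938) whose direction turned in some alternatives. SIX3, which in the mouse represses WNT genes in the anterior neural plate, had 9.85, 8.50 and 8.98 and then 10.16, 9.90 and 8.89. The arrays of both genes overlapped between the days. SIX3 differed by 0.54 ± 0.30 (adjusted p = 0.253), after group means of 4.43 and 4.48 on days 0 and 1.

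FEZF1, a zinc finger factor of the early forebrain, differed by 0.73 ± 0.29 (adjusted p = 0.0836), with 8.32, 7.33 and 8.54 at day 3 and 8.73, 9.15 and 8.50 at day 6. SIX6, an eye field relative of SIX3, differed by -0.39 and did not pass. HESX1, a repressor of the earliest forebrain, fell by 0.90 on the log2 scale (adjusted p = 0.0316), from 10.11, 9.58 and 9.76 to 9.35, 9.41 and 8.00. The fall of HESX1 leaned on replicate 3 of day 6, without which it was -0.44 (adjusted p = 0.426).

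**Figure D2:**
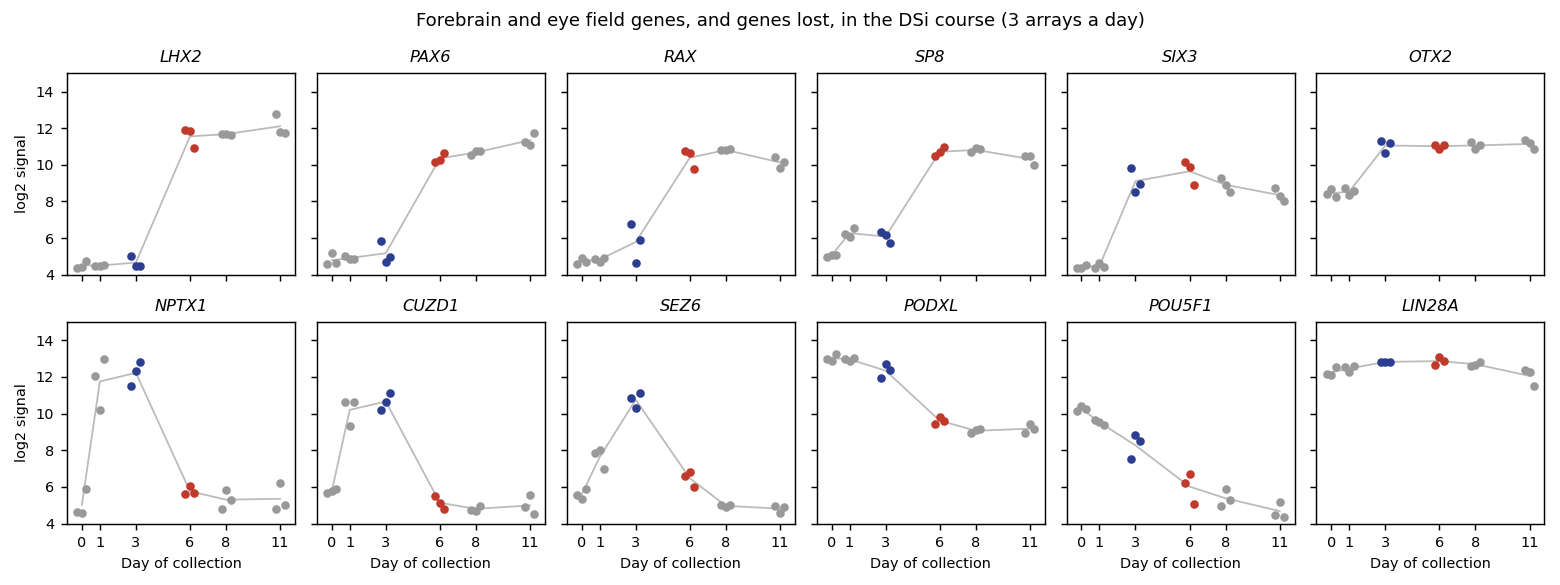
Log2 signal (vertical axis) by day of collection (horizontal axis, days 0 and 1 and DSi days 3 to 11) for 12 genes, 1 point an array, blue for day 3 and red for day 6, with a grey line through the group means. LHX2, PAX6, RAX and SP8 step up between days 3 and 6, SIX3 and OTX2 are high on both days, and NPTX1, CUZD1 and SEZ6 are high at day 3 and low at day 6.

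Among 18 tested genes of neural progenitors, 11 rose (61.1%) and 1 fell (5.56%), and the median difference was 0.90. The fall did not pass with median scaling or without replicate 3 of day 3. The median of the list includes LHX2, PAX6 and HES5, which also stand in other lists. DACH1, a cofactor of the eye and brain determination network, was at background at day 3 with 4.95, 4.87 and 5.03, and had 9.88, 9.79 and 9.68 at day 6, at least 24.4-fold higher. FABP7, the fatty acid binding protein of radial glia, and ZBTB16, a zinc finger factor of early neuroepithelium, were at least 5.10-fold and 4.12-fold higher. Both were above background on every day 6 array and on none of day 3.

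VIM, the intermediate filament of neuroepithelium, had 10.86, 10.40 and 10.67 at day 3 and 12.33, 12.15 and 12.46 at day 6, a rise of 1.67 ± 0.17 (adjusted p = 5.95e-10). ZNF521, a zinc finger factor that in mouse stem cells drives the step to neural progenitors, rose by 2.74 ± 0.29. NES, the intermediate filament nestin, differed by -0.42 ± 0.19 and did not pass (adjusted p = 0.152). The probes of SOX1, an early neuroectoderm factor, were not above background on enough arrays of the series to be tested.

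The SOX factors shared by stem cells and neural progenitors did not pass the test. SOX2 had 12.36, 11.41 and 11.69 at day 3 and 11.98, 11.73 and 11.83 at day 6, and the difference of 0.03 ± 0.23 did not pass (adjusted p = 0.962) and turned direction when single arrays were left out. SOX3 differed by 0.28 ± 0.26 (adjusted p = 0.574). Both genes had overlapping arrays.

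The other large rises included transcription factors, receptors and matrix genes. ZNF503, a zinc finger corepressor of the developing brain, rose by 3.97 ± 0.34, LMO3, a LIM-only cofactor, was at least 7.78-fold higher, and MAB21L2, a gene needed for eye development in mouse, was at least 8.42-fold higher. NRG1, the ligand of ERBB receptors, had 5.31, 4.59 and 4.98 at day 3 and 9.45, 8.69 and 9.08 at day 6, a rise of 4.11 ± 0.28 (adjusted p = 3.09e-15), with 1 day 3 array above background. CNTFR, the receptor chain for ciliary neurotrophic factor, rose by 3.55 ± 0.29 and KCNJ13, a potassium channel known from retinal pigment epithelium, by 3.51 ± 0.26. H2BC5, a histone H2B gene, was at least 9.62-fold higher. All of these genes were separated between the days on all 6 arrays.

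Notch signalling keeps neural progenitors from differentiating: DLL and JAG ligands on one cell activate receptors on the next, and the released receptor fragment binds DNA through RBPJ to switch on HES and HEY repressors. Of 21 Notch pathway genes 20 were tested, 6 rose (30%) and 1 fell (5%), with a median difference of 0.49. Promoter entries in RefSeq's table (assembly GRCh38.p14) were found for 3 of the 7 called members, HES5, HES4 and HES3. The 300 bases around the starts of HES5, at chr1:2530214-2530513 on the minus strand, and of HES4, at chr1:1000048-1000347 on the minus strand, are shown because both genes rose and both windows hold the letters GTGGGAA, a core of the RBPJ motif, or their reverse complement TTCCCAC, here in capitals.
HES5 promoter: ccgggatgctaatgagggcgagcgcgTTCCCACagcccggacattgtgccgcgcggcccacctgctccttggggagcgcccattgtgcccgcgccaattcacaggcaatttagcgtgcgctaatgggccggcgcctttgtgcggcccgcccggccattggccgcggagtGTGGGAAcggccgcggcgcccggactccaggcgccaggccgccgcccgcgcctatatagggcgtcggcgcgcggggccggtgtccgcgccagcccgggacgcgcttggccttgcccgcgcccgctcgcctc
HES4 promoter: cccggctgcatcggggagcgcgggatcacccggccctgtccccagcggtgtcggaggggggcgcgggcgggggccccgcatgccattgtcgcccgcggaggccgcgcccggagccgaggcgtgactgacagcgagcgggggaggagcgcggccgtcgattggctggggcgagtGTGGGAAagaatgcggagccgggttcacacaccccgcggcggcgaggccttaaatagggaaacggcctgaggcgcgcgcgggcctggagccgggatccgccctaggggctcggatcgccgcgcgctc
Counted from the start, the HES5 window held a match on the reverse strand at position -224 and one on the forward strand at -81, and the HES4 window held one at -77. The HES3 window held none. Either form of the motif occurs in 6.25% of all 35116 promoter windows of this length. A match describes the letters only and is not evidence of binding.

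HES5, a Notch target and repressor in neural progenitors, had 4.61, 6.39 and 5.41 at day 3, above background on 2 arrays, and 9.22, 9.01 and 9.86 at day 6. The rise was 3.90 ± 0.39 (adjusted p = 2.35e-10), and the level went on to group means of 12.04 and 12.31 on days 8 and 11. HES4, another repressor of the family, had 9.04, 7.94 and 7.92 and then 10.38, 9.88 and 10.27, a rise of 1.87 ± 0.27 (adjusted p = 1.22e-06). Replicate 1 was the lowest day 3 array for HES5 and the highest for HES4, and neither gene's days overlapped.

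DLL1, the ligand, had 7.22, 7.03 and 6.94 at day 3 and 10.36, 10.02 and 10.48 at day 6, a rise of 3.22 ± 0.29 (adjusted p = 1.14e-11). MFNG, a fringe enzyme that adds sugars to Notch receptors, rose by 1.70 ± 0.36, and by 1.13 without replicate 2 of day 3, its lowest array and 1 of 3 not above background there. HEY1, a repressor of the HEY family, was at least 1.41-fold higher. HES3, a repressor of early neuroepithelium, fell by 1.47 on the log2 scale (adjusted p = 0.000136), with 1 day 6 array above background.

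The receptors NOTCH1, NOTCH2 and NOTCH3 were above background on all 6 arrays, differed by 0.06, -0.12 and -0.33 and did not pass the test. HES1 differed by 0.56 ± 0.26 and did not pass (adjusted p = 0.158). DLK1, a Notch-like transmembrane protein from an imprinted locus, was among the brightest genes and had 12.79, 11.28 and 12.18 at day 3 and 13.69, 13.51 and 13.66 at day 6. Its rise of 1.53 ± 0.31 (adjusted p = 0.000321) followed a day 0 mean of 4.80.

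FGF signals act through ERK kinases, which induce feedback inhibitors such as SPRY and DUSP6 and the ETS factors ETV4 and ETV5. Of 22 FGF ligands, receptors and response genes 21 were tested, 9 rose (42.9%) and 5 fell (23.8%), with a median of 0.23. DUSP6, the phosphatase that inactivates ERK, had 5.81, 5.67 and 5.32 at day 3 and 9.23, 9.60 and 8.32 at day 6, a rise of 3.45 ± 0.35 (adjusted p = 2.61e-10). ETV5 had 5.31, 5.44 and 4.66 and then 8.65, 8.56 and 7.47, a rise of 3.09 ± 0.31, with 2 day 3 arrays above background. Replicate 3 was the lowest day 6 array for both, and still lay above every day 3 array.

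The group means of DUSP6 on days 0 and 1 were 8.75 and 6.13, so the day 3 level was the lowest of the course and the day 6 level was close to that of day 0. The feedback inhibitors SPRY1, SPRY2, SPRED2 and SPRED1 rose by 1.70 ± 0.36, 1.52 ± 0.33, 1.66 ± 0.26 and 0.53 ± 0.18. ETV4 and SPRY4 differed by 0.23 and -0.75 and did not pass. Of the FGF genes themselves 3 rose and 2 fell.

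FGF8, the ligand of the anterior neural ridge and the isthmus, had 5.18, 5.55 and 5.20 at day 3 and 8.39, 8.24 and 6.83 at day 6, a rise of 2.51 ± 0.30 (adjusted p = 1.66e-08). FGF9 and FGF13, the latter an intracellular relative that is not secreted, rose by 1.58 ± 0.26 and 0.89 ± 0.26. FGF17, a relative of FGF8, had 7.25, 6.91 and 7.07 and then 4.99, 4.85 and 4.63, at background on all day 6 arrays and at least 3.72-fold lower. FGF2, which is also the factor in the stem cell medium, fell by 1.26 on the log2 scale, from 8.72, 8.59 and 8.71 to 7.50, 7.22 and 7.50. The receptors FGFR3 and FGFR4 fell by 1.24 and 1.12, the former no longer past the threshold when the mean of its probes was used, a setting in which 3 members of the list fell. No promoter of the 10 called members with an entry held CCGGAAG or its reverse complement, an ETS motif found in 10.3% of all windows.

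BMP receptors signal through SMAD proteins to genes such as the ID family, and the labels name LDN-193189, a blocker of these receptors, on both days. Of 20 BMP targets, ligands and antagonists 18 were tested, 5 rose (27.8%) and 2 fell (11.1%), with a median of 0.28. ID1, which holds basic helix-loop-helix factors off DNA, had 7.54, 5.93 and 6.18 at day 3 and 10.73, 11.19 and 10.59 at day 6, a rise of 4.28 ± 0.31 (adjusted p = 2.11e-14). It had stood at group means of 9.90 and 6.34 on days 0 and 1, and the days 3 and 6 did not overlap. ID2 rose by 1.20 ± 0.19 (adjusted p = 4.3e-06), whereas ID3 differed by 0.56 ± 0.24 and did not pass (adjusted p = 0.115), with 9.78, 9.81 and 10.40 and then 10.27, 11.25 and 10.13.

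The other ID gene, ID4, was at background on all 6 arrays, and the SMAD feedback genes SMAD6 and BAMBI differed by -0.11 and 0.64 and did not pass. The antagonists FST and GREM1 rose by 1.33 ± 0.25 and 1.38 ± 0.32, the latter from 2 arrays above background. The ligands BMP2 and BMP7 fell by 1.13 and 1.08. Targets and feedback genes of Nodal and TGF-beta were mostly dim: of 14 tested 2 rose (14.3%) and 1 fell (7.14%), with a median of 0.11. LEFTY1, NODAL, CER1 and SKIL were at background on all 6 arrays. The calls of TGFBI and TGIF1, which were higher at day 6, were each lost when single arrays were left out. In the list 1 gene rose without replicate 2 or 3 of either day and 3 rose without replicate 1 of day 6, and the fall was lost without replicate 1 or 3 of day 6 or replicate 2 of day 3, with the authors' values and with an offset of 50.

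Retinoic acid is made from retinol by dehydrogenases such as RDH10 and the ALDH1A enzymes, is broken down by CYP26 enzymes, and posteriorizes neural tissue. Of 18 genes of retinoid metabolism and the COUP-TF receptors 15 were tested, 3 rose (20%) and 5 fell (33.3%), with a median of -0.39. CYP26A1, the degrading enzyme and a retinoid target, was among the brightest genes at day 3 with 13.17, 12.99 and 13.15, and had 10.50, 11.16 and 7.92 at day 6. Replicate 3 was far below the other day 6 arrays, and the gene fell by 3.24 on the log2 scale (adjusted p = 4.67e-07), or by 2.27 without that array.

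DHRS3, which turns retinal back to retinol and is itself induced by retinoids, had 8.14, 9.74 and 8.59 and then 5.79, 5.56 and 5.01, a fall of 3.37 on the log2 scale, with 2 day 6 arrays above background. RARRES2, the chemokine-like chemerin gene induced by retinoids, fell by 3.35. ALDH1A2, a retinoic acid synthesizing enzyme, rose from 5.78, 5.83 and 5.72 to 7.81, 8.05 and 6.85, by 1.80 ± 0.29 (adjusted p = 1.26e-05). ALDH1A3, a sister enzyme, fell by 1.19, a call lost with the authors' values, and RDH10 fell by 0.97. With the authors' values 2 members of the list fell, and with median scaling or an offset of 50, 3.

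Both COUP-TF nuclear receptors on the list rose. NR2F1 was at background at day 3 with 4.49, 4.67 and 4.73 and had 7.13, 6.57 and 8.22 at day 6, at least 4.36-fold higher. NR2F2 had 6.43, 4.96 and 6.34 and then 8.66, 8.40 and 9.95, a rise of 3.10 ± 0.28 (adjusted p = 2.28e-11), with 2 day 3 arrays above background. In both genes replicate 3 was the highest day 6 array, the array in which CYP26A1 was lowest.

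**Figure D3:**
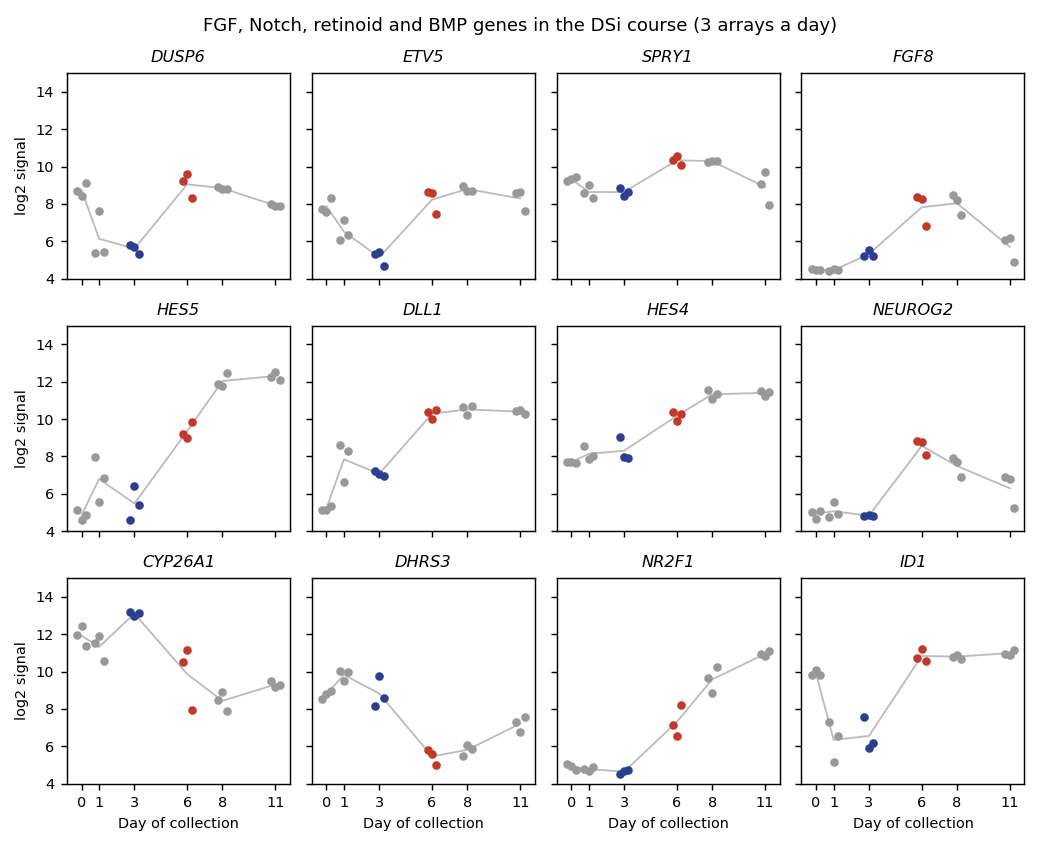
Log2 signal (vertical axis) by day of collection (horizontal axis, days 0 and 1 and DSi days 3 to 11) for FGF, Notch, retinoid and BMP genes, 1 point an array, blue for day 3 and red for day 6, with a grey line through the group means. DUSP6, ETV5 and ID1 are lower on days 1 and 3 than on days 0 and 6, HES5 goes on rising to day 11, and CYP26A1 and DHRS3 fall after day 3.

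WNT signalling posteriorizes the neural plate, and the forebrain forms where it is held low by secreted antagonists. Of 29 WNT genes 24 were tested, 5 rose (20.8%) and 2 fell (8.33%), with a median of 0.11. WNT5B, a ligand of the branch that does not act through beta-catenin, was at background at day 3 with 4.91, 5.02 and 4.58 and had 8.38, 8.20 and 8.70 at day 6, at least 9.50-fold higher. DKK1, a secreted antagonist, had 6.07, 4.83 and 4.72 and then 7.39, 8.15 and 8.99, a rise of 2.97 ± 0.40, with 1 day 3 array above background. LEF1, a nuclear effector, and FZD3, a receptor, rose by 1.51 ± 0.27 and 1.18 ± 0.18.

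The feedback target AXIN2 was above background on all 6 arrays, differed by 0.21 ± 0.17 and did not pass (adjusted p = 0.505). SFRP1 and SFRP2, secreted antagonists with group means from 10.60 to 12.53, did not pass either, at -0.24 and 0.54. The calls of TNFRSF19 and DKK3, which were lower at day 6, were lost with median scaling, with the mean of a gene's probes and with only the arrays compared, and 1 of them was left without any single array other than replicate 2 of day 3.

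Of 25 genes on the pluripotency list 23 were tested, 11 (47.8%) were lower at day 6, 12 did not pass and 0 rose. The median difference was -0.64. POU5F1, the core pluripotency factor, had 7.50, 8.81 and 8.49 at day 3 and 6.23, 6.73 and 5.09 at day 6, a fall of 2.25 on the log2 scale (adjusted p = 3.63e-07), with 2 day 6 arrays above background. Replicate 1 was the lowest at day 3 and replicate 3 the lowest at day 6, and the days did not overlap. Its probes may also bind transcripts of near-identical copies such as POU5F1B.

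PODXL, a sialomucin of the stem cell surface, had 11.92, 12.73 and 12.39 and then 9.45, 9.82 and 9.59, a fall of 2.73 (adjusted p = 4.1e-16). PRDM14, a repressor of differentiation genes in stem cells, fell by 2.54 and CD9, a tetraspanin of the stem cell surface, by 2.88. DNMT3B, the de novo DNA methyltransferase of early embryos, had 11.34, 11.46 and 11.14 and then 9.80, 9.93 and 9.46, a fall of 1.58 (adjusted p = 8.11e-08). ZSCAN10, PHC1 and ZFP42 fell by 1.69, 1.45 and 1.28.

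NANOG, the pluripotency homeobox factor, was at background on all 6 arrays, after group means of 9.48 and 7.06 on days 0 and 1, so it had reached background by day 3. LIN28A and LIN28B, RNA-binding proteins that block let-7 microRNAs, stayed bright. LIN28A had 12.83, 12.84 and 12.80 at day 3 and 12.66, 13.09 and 12.85 at day 6, a difference of 0.04 ± 0.14 (adjusted p = 0.911), and LIN28B differed by 0.10 ± 0.15 (adjusted p = 0.765). SALL4, a zinc finger factor of stem cells and embryos, differed by -0.09 ± 0.15.

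The largest falls were of genes that were not on the pluripotency list, several of them higher on days 1 and 3 than on day 0. NPTX1, a secreted pentraxin known from neurons, had 11.50, 12.35 and 12.82 at day 3 and 5.59, 6.03 and 5.66 at day 6, a fall of 6.46 on the log2 scale (adjusted p = 4.89e-14). Its day 0 and day 1 means were 5.02 and 11.76. CUZD1, a gene with CUB and zona pellucida-like domains, had 10.20, 10.66 and 11.13 and then 5.48, 5.13 and 4.79, a fall of 5.53, with 1 day 6 array above background.

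SEZ6, a seizure-related membrane protein, had 10.87, 10.28 and 11.12 and then 6.57, 6.84 and 6.02, a fall of 4.28 (adjusted p = 6.15e-14). PPP1R1B, a phosphatase inhibitor known from striatal neurons, PAPLN, a papilin of the extracellular matrix, and RHBDL3, a rhomboid-like protein, changed by -4.18, -3.88 and -3.51. Each of these 6 genes had a lower mean on day 0 than on day 3, and the mean of NPTX1 on day 8 was 5.30.

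Other genes were high from day 0 and were lost over the same interval. OLFML3, a secreted olfactomedin-like protein, had 11.35, 11.29 and 11.44 at day 3 and 7.88, 8.27 and 6.80 at day 6, a fall of 3.71 (adjusted p = 3.09e-15). SCGB3A2, a secretoglobin, EDN1, the peptide endothelin 1, and OLFM1, another olfactomedin, changed by -4.01, -3.69 and -3.23. BCL11A, a zinc finger repressor, had 8.37, 9.07 and 8.38 and then 5.01, 5.10 and 5.17, at background on all day 6 arrays and at least 10.75-fold lower.

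GAL, the neuropeptide galanin, fell by 3.15 from 8.06, 8.52 and 8.68, after a day 0 mean of 11.99. MEGF10, a receptor for the engulfment of dying cells, CNMD, chondromodulin, and NMRK2, a kinase of nicotinamide riboside, changed by -3.22, -3.20 and -3.01. PKDCC, a secreted tyrosine kinase, had its highest group mean of the course at day 3, with 11.94, 12.26 and 12.66, and fell by 3.18. MX1, an interferon-induced GTPase, had 6.92, 8.57 and 8.17 and then 4.50, 4.53 and 4.46, at background at day 6 and at least 6.53-fold lower. All 20 of the largest falls were separated between the days on all arrays, as the rule for naming them required.

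Of 25 genes in the list of cadherins and epithelial genes 21 were tested, 3 rose (14.3%) and 7 fell (33.3%). The other 11 did not pass, and the median was -0.09. CDH2, N-cadherin of neuroepithelium, had 11.48, 11.24 and 11.43 and then 12.42, 12.24 and 12.62, a rise of 1.04 ± 0.15 (adjusted p = 7.02e-07). CDH6 had 6.74, 4.82 and 4.84 at day 3, above background on 1 array, and 9.27, 9.74 and 8.26 at day 6, a rise of 3.63 ± 0.33. CDH11 rose by 2.86 ± 0.27, and for all 3 cadherins the days did not overlap.

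CDH1, E-cadherin of the stem cell epithelium, had 10.57, 11.20 and 10.84 and then 9.40, 10.26 and 8.63, a fall of 1.44 (adjusted p = 0.0185) that was lost when single arrays were left out. EPCAM, an epithelial adhesion molecule, had 10.72, 11.26 and 10.94 and then 9.33, 9.46 and 7.84, a fall of 2.10 (adjusted p = 0.000202). The tight junction claudins CLDN7, CLDN6 and CLDN3 fell by 2.75, 2.18 and 1.61, and P-cadherin, CDH3, by 1.77. Replicate 3 was the lowest day 6 array for CDH1, EPCAM, CLDN7 and CDH3.

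Genes of the extracellular matrix included 9 that rose (37.5%) and 3 that fell (12.5%) among 24 tested, with a median of 0.31. COL2A1, the fibrillar collagen of cartilage that early neuroepithelium also makes, was at background at day 3 with 4.71, 4.75 and 4.59 and had 8.24, 7.62 and 8.61 at day 6, at least 7.88-fold higher. COL11A1, its partner in fibrils, rose by 2.17 ± 0.28, FBN2, a fibrillin of the embryo, by 1.70 ± 0.21 and SPON1, a floor plate adhesion protein, by 1.85 ± 0.22. Type IV collagen and laminin genes, COL4A1, COL4A2, LAMB1 and LAMC1, did not pass.

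Markers of fibroblasts and mesenchyme did not move as a block. Of 20 tested 3 rose (15%) and 5 fell (25%), and with median scaling 1 rose and 2 fell. Without replicate 1 or 2 of day 6, 1 rose, and 3 fell without replicate 1 of day 6 and 2 without replicate 2 or 3 of day 3. COL1A1, a fibrillar collagen, fell by 2.16 (adjusted p = 7.58e-10), from 8.76, 9.97 and 9.49 to 7.02, 7.40 and 7.31, and ACTA2, smooth muscle actin, rose by 1.42 ± 0.16. COL3A1 and DCN were at background on all 6 arrays, and the summed signal of the list was 5787 to 8983 at day 3 and 6550 to 7066 at day 6. The part of feeder-like cells in these values was not tested.

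Of 22 tested genes of the response to low oxygen and of glycolysis 10 rose (45.5%) and 2 fell (9.09%), and the median was 0.68. BNIP3, a mitochondrial protein of the hypoxia response, had 10.02, 9.36 and 8.73 and then 11.75, 11.68 and 10.76, a rise of 2.03 ± 0.29 (adjusted p = 8.64e-07). SLC2A1, the glucose transporter GLUT1, had 9.97, 10.14 and 9.79 and then 11.72, 11.89 and 11.05, a rise of 1.59 ± 0.30. KDM3A, a histone demethylase induced by hypoxia, and PFKFB4, which makes the activator of phosphofructokinase, rose by 1.79 ± 0.32 and 1.72 ± 0.32.

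The enzymes LDHA, PGK1 and ALDOA rose by 0.97 ± 0.16, 0.94 ± 0.16 and 0.92 ± 0.15, with every day 6 array above every day 3 array. ENO1, HK2 and VEGFA did not pass, and HK1 and PFKP, hexokinase and phosphofructokinase forms, fell by 0.76 and 0.82, calls lost with median scaling, and 1 of them was left without replicate 3 of day 6. Oxygen in the cultures is not given in the labels.

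Of 21 tested genes of amino acid supply and stress, 12 (57.1%) were lower at day 6 and 0 rose, with a median of -0.65. Many of the genes are known targets of the factor ATF4, and 6 were lower with median scaling. SLC7A5, the transporter of large neutral amino acids, had 9.69, 10.27 and 10.53 and then 8.00, 8.71 and 7.94, a fall of 1.95 (adjusted p = 5.81e-10). ASNS, asparagine synthetase, had 10.95, 10.79 and 11.16 and then 9.85, 9.84 and 8.84, a fall of 1.46. ATF4 itself fell by 0.84 (adjusted p = 2.94e-05), from 12.16, 12.07 and 12.15 to 11.29, 11.34 and 11.21.

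Enzymes of serine and folate metabolism, SHMT2, MTHFD2 and PSAT1, fell by 0.86, 0.84 and 0.56, and CBS, which makes cystathionine, by 1.29. For all of the genes named here the days were separated. Among 20 cholesterol synthesis genes 1 rose (5%) and 4 fell (20%), with a median of -0.06. SC5D, an enzyme late in the pathway, fell by 2.05. Of the 4 falls 2 were left with median scaling and without replicate 2 or 3 of day 3 or replicate 3 of day 6. The rise was lost without replicate 3 of day 3 and with the mean of a gene's probes.

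Position along and across the neural tube was read from further lists. Of 24 genes of midbrain, hindbrain and spinal cord 13 were at background across the series, among them EN1, EN2, PAX2, GBX2 and the HOX genes HOXB1, HOXA2 and HOXB4. Of the 11 tested 2 rose (18.2%), FGF8 among them, and 4 fell (36.4%), all of the IRX family.

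IRX3, an Iroquois factor that is absent from the anterior forebrain in vertebrates, had 9.83, 10.66 and 10.54 and then 9.25, 9.09 and 8.83, a fall of 1.28 (adjusted p = 1.59e-05). IRX5 and IRX2 fell by 1.62 and 1.21, and IRX1 by 0.68, with overlapping arrays and a call lost with median scaling. Of 16 dorsal genes tested 2 rose (12.5%) and 2 fell (12.5%), beside 6.81% and 7.69% of all genes. Only 1 rose without replicate 2 of either day, and 1 fell without replicate 3 of either day or replicate 1 of day 6. RSPO3, a WNT amplifier of the dorsal midline, had 5.52, 4.88 and 4.84 and then 7.46, 7.76 and 7.76, a rise of 2.58 ± 0.34 with 1 day 3 array above background.

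MSX1 and the roof plate ligands WNT1 and WNT3A did not pass, the latter pair at background. Of 14 hedgehog and ventral genes tested 3 rose (21.4%) and 2 fell (14.3%). Of these, 1 rose without replicate 1 or 3 of day 6 or replicate 2 of day 3, and 1 fell without replicate 1 or 3 of day 3 or replicate 2 or 3 of day 6. GAS1, a hedgehog co-receptor, had 8.79, 7.90 and 8.11 and then 10.68, 10.49 and 10.46, a rise of 2.27 ± 0.22 (adjusted p = 7.75e-11). GLI1, a transcriptional readout of hedgehog signalling, had 5.97, 5.89 and 6.10 and was at background at day 6, at least 1.75-fold lower. SHH and NKX2-1 were at background across the series.

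Markers of other cell types that such cultures can hold were read beside the 6.81% of all genes that rose and the 7.69% that fell. Of 19 neural crest genes tested 4 rose (21.1%) and 3 fell (15.8%), with a median of 0.08. Without replicate 1 or 3 of day 6 or replicate 2 of day 3, 1 fell. With the authors' values 2 rose, and with a stricter filter, which left 9 members to test, 2 rose. TFAP2A, a factor of neural crest and surface ectoderm, was at background at day 3 with 4.46, 4.45 and 4.43 and had 6.15, 7.65 and 6.31 at day 6, at least 2.88-fold higher. It passed with its brightest probe, and 4 of its 5 probes moved that way, but neither with the authors' values nor with the mean of its probes. SNAI2, a crest repressor of cell adhesion, was at least 1.88-fold higher and SOX5 at least 1.39-fold.

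SOX10, the crest and glial factor, had 5.20, 5.14 and 4.95 and then 6.02, 5.37 and 6.26, a difference of 0.78 ± 0.24 (adjusted p = 0.0208) that did not pass with median scaling, with the authors' values, with an offset of 50, with only the arrays compared, or without replicate 1 or 3 of day 6 or replicate 3 of day 3. FOXD3 and TFAP2B were at background on all 6 arrays, and EDNRB, the endothelin receptor of crest and melanoblasts, differed by -0.36 ± 0.35 (adjusted p = 0.59), with 7.37, 7.02 and 5.71 and then 6.61, 6.88 and 5.54, and its 3 probes disagreed in direction. The summed signal of the crest list was 1453 to 1797 at day 3 and 1434 to 1859 at day 6. Its part in the other results was not tested.

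Of 18 placode and surface ectoderm genes tested 3 rose (16.7%) and 0 fell. DLX5, a homeobox factor of the anterior border of the neural plate, had 6.16, 5.14 and 6.09 and then 8.89, 10.09 and 7.97, a rise of 3.19 ± 0.53 (adjusted p = 1.63e-05), and DLX3 rose by 1.47 ± 0.34. Both had 2 day 3 arrays above background and their highest signal on replicate 2 of day 6. The summed signal of the list went from 2856 to 3570 at day 3 to 3770 to 5982 at day 6, and GATA2, PITX1 and TP63 were at background on all 6 arrays.

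Of 14 pigment cell genes tested 8 were at background on all 6 arrays, among them MITF, DCT, TYR, TYRP1 and MLANA. SOX10 was the 1 member that rose (7.14%), and KIT and GPR143 differed by -1.18 and -0.75 and passed (14.3%). Without replicate 1 of either day or replicate 2 of day 3, 1 was lower, and without replicate 1 of day 3, 2 rose. MITF, the melanocyte master factor, differed by 0.13 ± 0.28 and DCT, a melanin enzyme, by 0.01 ± 0.25, the latter reversing when 1 array was left out. PMEL, the melanosome matrix protein, was bright on both days with 10.39, 9.56 and 10.05 and then 10.50, 10.45 and 10.37, and did not pass (0.44 ± 0.20, adjusted p = 0.15). Of 12 mesoderm and endoderm genes tested 2 rose (16.7%), CXCR4 and FOXA1, against 1 without replicate 3 of day 6 or with the authors' values. A stricter filter left no member of this list to test. FOXA1, an endoderm and floor plate factor, was at least 1.37-fold higher. EOMES, HAND1, FOXA2 and AFP were at background on all 6 arrays, TBXT was above it on 1 day 6 array, and the summed signal of the list was 337 to 358 at day 3 and 418 to 551 at day 6.

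Neuronal genes were mixed. Of 22 tested 3 rose (13.6%) and 3 fell (13.6%), with 9 at background on all 6 arrays. NEUROG2, the proneural factor of cortical and sensory progenitors, was at background at day 3 with 4.78, 4.88 and 4.81 and had 8.80, 8.79 and 8.09 at day 6, at least 10.4-fold higher. MAP2, a microtubule protein of dendrites, rose by 1.74 ± 0.23, while TUBB3, the neuronal tubulin that stem cells also express, had 10.33, 10.45 and 10.47 and then 9.01, 9.45 and 8.17, a fall of 1.54 (adjusted p = 1.08e-07).

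DCX, a microtubule protein of migrating neurons, differed by 0.09 ± 0.30, and NEUROD1 and ELAVL3 were at background. Among 11 glial genes tested 3 fell (27.3%) and 0 rose, and 1 fell without replicate 1 of day 6 or replicate 2 of day 3. NFIB, a factor of the onset of gliogenesis that was high in the stem cells (day 0 mean 8.95), fell by 2.41 (adjusted p = 1.27e-08).

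Further lists covered cell division, chromatin, imprinting and axon guidance. Of 27 cell cycle genes 6 rose (22.2%) and 3 fell (11.1%), beside 6.81% and 7.69% of all genes, with a median of 0.07. In that list 0 fell without replicate 2 of day 3. Only 1 fell without replicate 3 of day 3, with median scaling or with the authors' values. MKI67, TOP2A and PCNA, markers of dividing cells, differed by -0.15, 0.47 and -0.41 and did not pass. CCNB2, a mitotic cyclin, rose by 0.74 ± 0.12 and CCND2, a cyclin of neural progenitors, by 0.86 ± 0.19. CDK1, listed under its older name CDC2, rose by 0.98 ± 0.20.

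Of 15 epigenetic regulators 2 rose (13.3%) and 1, DNMT3B, fell (6.67%), while DNMT1, DNMT3A, TET1 and EZH2 did not pass. Those rises were lost with median scaling, with only the arrays compared, without the variance trend, and without replicate 1 of day 6 or replicate 2 or 3 of day 3. Of 16 imprinted genes 0 fell and 5 rose (31.2%), MEST among them with 1.15 ± 0.21. Without replicate 3 of day 3, 2 rose, without replicate 1 of day 6, 3 rose, and without replicate 2 of either day 1 fell. Of 26 axon guidance genes tested 5 rose (19.2%) and 3 fell (11.5%). EFNB2, an ephrin ligand, had 8.94, 8.18 and 8.36 and then 10.55, 10.47 and 10.69, a rise of 2.08 ± 0.20 (adjusted p = 5.43e-11). SEMA3A, a repulsive semaphorin, and EPHA4, an ephrin receptor, rose by 1.86 ± 0.25 and 1.24 ± 0.24, and the neuropilins NRP1 and NRP2, receptors for class 3 semaphorins, fell by 1.30 and 1.40.

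**Figure D4:**
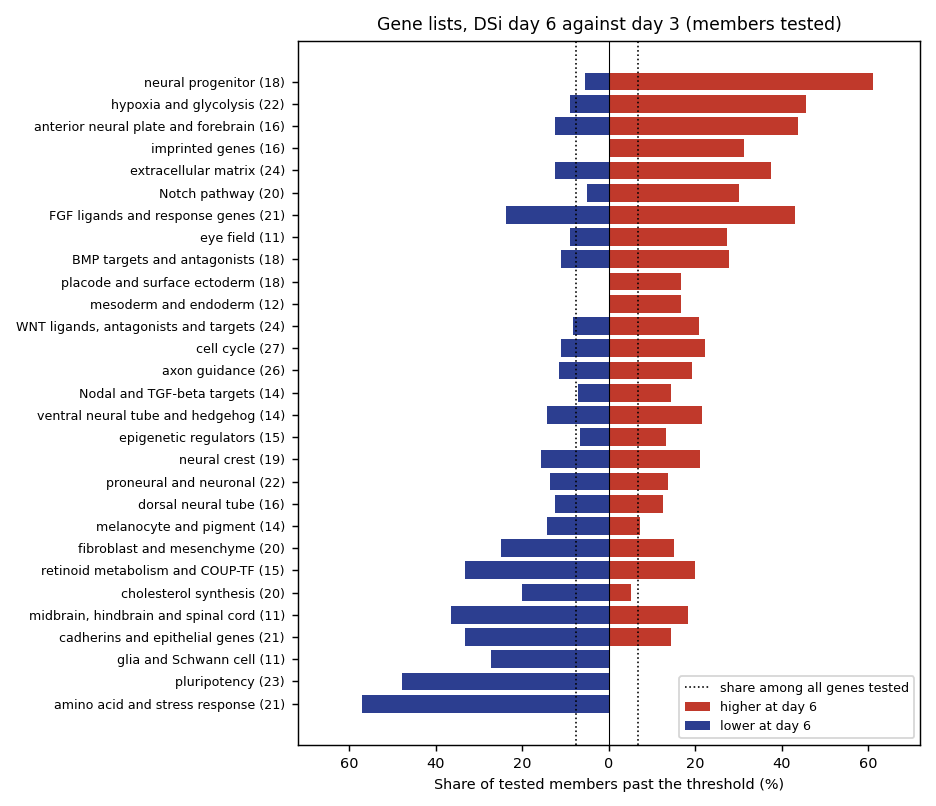
Share of the tested members of each gene list (percent, horizontal axis) that were higher (red, to the right) or lower (blue, to the left) at DSi day 6 than at day 3, with the number tested in brackets. Dotted lines mark the shares among all genes tested, 6.81% higher and 7.69% lower; neural progenitor genes have the largest share higher and amino acid and stress genes the largest share lower.

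The same interval in the NC condition, on other arrays, allowed a test of whether the change itself differed. In NC 5133 genes passed between days 3 and 6, 22.5% of those tested, 2484 higher (10.9%) and 2649 lower (11.6%), so that 48.4% of the calls were higher, against 77.8% with median scaling. Of the DSi calls 1026 were higher in both conditions and 1245 were lower in both, whereas 14 rose in DSi and fell in NC and 9 did the opposite. The difference between the 2 changes passed for 309 genes, 1.35% of those tested, of which 147 were above 0 (0.643%) and 162 below 0 (0.709%). With median scaling 168 genes passed, 31.5% of them above 0 against 47.6%, and 167 passed when the other arrays were left out of the fit. Same-numbered DSi and NC arrays of a day deviated together from their group means, and with the number within each day as a block 630 genes passed (2.76%), 302 above 0 and 328 below, with all 309 among them. PAX6 rose in both conditions, by 5.18 in DSi and 4.35 in NC (adjusted p of the difference 0.289), and the falls of NPTX1, CUZD1 and SEZ6 were 5.55, 6.00 and 3.83 in NC, with no difference past the threshold.

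The largest difference was that of LHX2. It rose by 6.89 in DSi and changed by 0.06 in NC, a difference of 6.83 ± 0.35 (adjusted p = 9.61e-19). RAX, NRG1 and HES5 showed the same contrast, with changes of 4.60, 4.11 and 3.90 in DSi against 0.77, 0.14 and -0.03 in NC, none of the NC changes past the threshold. DUSP6 rose by 3.45 in DSi and differed by -0.46 in NC (adjusted p of the difference 5.37e-07), and FGF8 by 2.51 against -0.37. In the FGF list 9 genes rose and 5 fell in DSi, against 1 and 8 in NC. The difference itself passed above 0 in 5 members and below 0 in 1, or in 6 and 1 with the block. Over all genes tested, without the block, 0.643% passed above 0 and 0.709% below.

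The opposite contrast was found for other genes, of which TFAP2B is on the crest list. WNT1 differed by 0.05 in DSi, where it was at background on all 6 arrays, and rose by 5.80 in NC, a difference of -5.75 ± 0.50 (adjusted p = 3.09e-11). POU4F1, a factor of sensory neurons, rose by 0.83 in DSi and by 5.65 in NC. The DSi change passed narrowly (adjusted p = 0.0477) and not with median scaling. TFAP2B, MSX1 and EDNRA, the endothelin A receptor, did not pass in DSi, at 0.21, 0.51 and -0.21, and rose by 4.70, 4.40 and 4.18 in NC. Of the 19 crest genes tested 11 rose in NC, and in 8 members the difference passed below 0, or in 10 with the block.

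**Figure D5:**
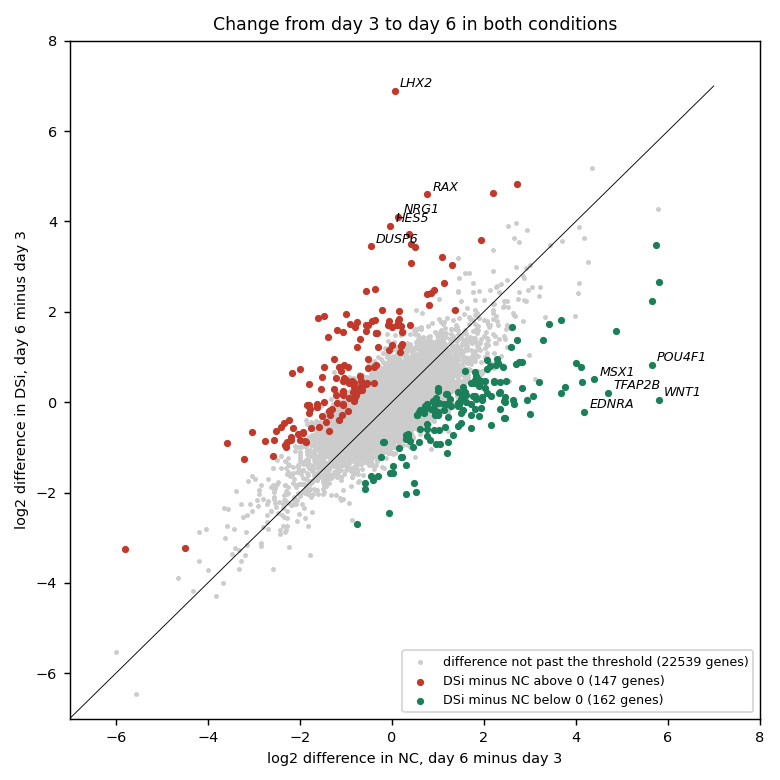
Log2 difference between day 6 and day 3 in DSi (vertical axis) against that in NC (horizontal axis), 1 point a gene; on the black line both are equal. Red points are the 147 genes whose DSi change minus NC change passed above 0, green points the 162 that passed below 0, and grey points the rest, with LHX2 far above the line and WNT1 far below it.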

How the data were processed

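Illumina beadchip arrays of human genes were hybridised with RNA of 36 samples. The deposited files gave each probe's signal as an intensity that was not yet normalized, with a detection p-value per probe, per the file headers. The authors' deposited value table held log2 values per gene. The submitters' processing notes name Partek, whose role and settings the sources used here do not give.

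Probes were tied to genes by their order and their values. The mean signals of runs of neighbouring probes were mapped, array by array, to the scale of the authors' deposited log2 values and matched to them. That tied 34685 of 34687 genes, so the name of a gene rests on the order of the probes as well. Signals were background-corrected (normexp with the detection p, offset 16), quantile normalized and log2 transformed with limma 3.58.1 in R 4.3.3. A probe stayed in if its detection p lay below 0.05 on 3 or more arrays, and the brightest probe stood for a gene, which left 22848 genes. All 36 arrays entered a model of group means (lmFit, eBayes with trend), and genes were called at a Benjamini-Hochberg adjusted p under 0.05 over all genes tested. In simulated data a small set of the 22848 genes was changed by a known size. The fit for day 6 against day 3 of DSi recovered 16% of those changed by 0.5 on the log2 scale and 62% by 1. It recovered 100% of those changed by 2 and 100% by 4. Far fewer genes changed there than passed in the data. The adjusted p depends on that share, so these percentages do not give the sensitivity of the test here.

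Named genes were the 20 largest rises and 20 largest falls among called genes whose groups did not overlap, up to 4 called members per direction of each gene list, the 10 largest differences between the DSi and NC changes, and a short fixed list. The samples, lists and genes were chosen with earlier results of these data known. Alternatives changed the scaling, the offset, the filter, the probe rule, the arrays in the fit, the variance trend and the replicate block, used the authors' values, or left out each replicate. Results for a few list members are not reported here. Same-numbered arrays of DSi and NC, whose titles share a code of unstated meaning, correlated in their deviations from the group means at 0.308, 0.257 and 0.112 on day 3 and 0.163, 0.201 and 0.248 on day 6. A fit with these pairs as a block was therefore added for the difference between the conditions, after the data were seen. The differences of single genes, with their errors and adjusted p-values, come from the fit without that block.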

Additional observations from a re-analysis of the deposited data

Results flagged for a closer look

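For 41 of the named genes the change from day 3 to day 6 differed between DSi and NC by the test of the difference in limma (adjusted p under 0.05). Over all genes tested the difference passed for 309, or 1.35%. The naming rule took the 10 largest of these differences and favoured large changes in DSi. The count of 41 is therefore set in part by that choice and is no result about the named genes. Values are the DSi change minus the NC change on the log2 scale. The difference was above 0 for 25 genes and below 0 for 16. A value above 0 can be a smaller fall in DSi than in NC, as for HESX1 (-0.90 against -3.58). It was so too for CYP26A1, PROM1, OLFM1, SEMA6A and COL18A1. A value below 0 can be a smaller rise in DSi than in NC, as for NR2F1 (2.67 against 5.81). The same held for MAB21L2, SNAI2, TFAP2A and GREM1, among others. Groups of 3 arrays were not examined for outlying samples.

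The largest differences above 0 were LHX2 with 6.83, NRG1 with 3.98, HES5 with 3.93, DUSP6 with 3.91 and RAX with 3.83. Next came NEUROG2 with 3.36, KCNJ13 with 3.10, FGF8 with 2.88, FEZF1 with 2.72 and ETV5 with 2.68. Differences of intermediate size were HESX1 with 2.68, CYP26A1 with 2.55, SP8 with 2.42, SPRY1 with 2.22 and ALDH1A2 with 2.21. The smaller of them were DLL1 with 2.14, DACH1 with 2.10, DLK1 with 1.89, EMX1 with 1.86 and WNT5B with 1.64. Close to these were PROM1 with 1.36, OLFM1 with 1.26, SEMA6A with 1.19, COL18A1 with 1.02 and FOXA1 with 0.95.

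The largest differences below 0 were WNT1 with -5.75, POU4F1 with -4.82, TFAP2B with -4.49 and EDNRA with -4.39. They were followed by MSX1 with -3.89, TFAP2A with -3.40, SOX10 with -3.33 and SNAI2 with -3.29. Then came NR2F1 with -3.14, EDNRB with -2.79, BMP2 with -2.33 and MAB21L2 with -2.27. The smallest below 0 were COL1A2 with -2.06, GREM1 with -1.91, NRP2 with -1.71 and ERBB3 with -1.68.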

How the results depend on the processing

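Of 185 named genes 168 passed the test, and 122 kept direction and side of the threshold in all 16 alternatives. Most were named because they passed in these same arrays, so neither count measures how stable the test is. With median scaling 1560 genes passed between days 3 and 6 of DSi, against 3315, and 168 for the difference between DSi and NC, against 309. With only the arrays compared in the fit, 2272 passed for DSi, 3778 for NC and 167 for that difference. Leaving out single arrays gave 2236 to 3420 genes for DSi, 3973 to 5120 for NC (5133 with all arrays) and 238 to 334 for the difference. The cause was not tested.

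Same-numbered DSi arrays correlated in their deviations at 0.124, 0.0306 and -0.0403, so the numbers were not taken as pairs of days within a condition. With the number as a replicate block on all arrays 3792 genes passed for DSi, 5580 for NC and 424 for the difference, and on only the arrays compared 2282, 4242 and 286. With the number within each day as a replicate block, added after the data were seen, 630 genes passed for the difference, and all 41 named genes that had passed did so, with 23 more.

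6 genes, none past the threshold, turned direction. Leaving out single arrays gave -0.17 to 0.30 for SOX2, -0.25 to 0.09 for OTX2, -0.07 to 0.14 for LIN28A, -0.03 to 0.18 for LIN28B, -0.04 to 0.05 for DCT and -0.85 to 0.04 for EDNRB. OTX2 was also 0.10 with median scaling, 0.10 with the authors' values and 0.22 with the mean of its probes. Genes near background have compressed differences, and 3428 of the genes tested were not above it on any of the 6 arrays.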

Other observations

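Several genes outside the lists were chosen after their values were seen, and are given as values. MEIS2 had 5.31, 4.77 and 4.98 at day 3 and 8.06, 7.92 and 7.78 at day 6, a rise of 2.90 (limma, adjusted p = 4.24e-15), and it encodes a homeobox cofactor. WLS had 7.42, 6.82 and 7.85 at day 3 and 9.24, 10.05 and 11.78 at day 6, a rise of 2.99 (limma, adjusted p = 2.45e-07), and it carries WNT proteins to the cell surface. GPC3 had 9.94, 8.59 and 9.23 at day 3 and 11.76, 11.54 and 11.91 at day 6, and it encodes a glypican of the cell surface.

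MYB had 8.67, 8.86 and 8.18 at day 3 and 5.90, 5.96 and 5.68 at day 6, and the change was -2.73 (limma, adjusted p = 5.73e-08). TRIM22 changed by -2.41 and IFI6 by -1.15, and both are known to be induced by interferon, for which no list was counted. PARP12, at background at day 6, was at least 4.90-fold lower. The histone genes H2AC6 and H2BC12 rose by 2.70 and 1.84, the former from 1 array above background at day 3.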
